A study of Bos taurus with 8 samples.

Results

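The genes described here encode the contractile machinery of skeletal muscle: myosin heavy and light chains, actins, troponins and tropomyosins, the giant and Z-disc proteins that hold them in register, and the calcium, oxygen and energy proteins of the fibre. They were chosen by name, as 40 symbols, and 39 of them matched 1 row each among the 21880 genes of the count matrices. TTN was not matched and was not analysed here. By known fibre-type use, 13 of the genes are fast isoforms, 10 are slow isoforms, 4 (ACTC1, MYL4, MYH3 and MYH8) are isoforms of developing muscle, and the other 12 found are shared between fibre types.

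In a sarcomere, myosin filaments pull on actin filaments, and troponin and tropomyosin make this depend on calcium. Most parts exist as fast and slow versions encoded by separate genes, and developing or regenerating muscle uses embryonic and neonatal versions before the adult ones. Satellite cells (SCs), the stem cells of muscle, switch these genes on when they leave the cycle under the control of factors such as myogenin (MYOG) and fuse. Fibro-adipogenic progenitors (FAPs), the connective tissue cells of muscle, and endothelial cells are not known to build sarcomeres, while smooth muscle and mesenchymal cells (SMMCs) use their own tropomyosin and desmin.

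Cells came from the semitendinosus muscle of 10 Belgian Blue cattle, donors 2, 4, 5, 7 and 10 being calves and donors 1, 3, 6, 8 and 9 adults. Timepoint 1 was digested muscle, Timepoint 2 was all adherent cells of 9 donors (without donor 3), kept for 72 h on fibronectin in a growth medium free of serum, and Timepoints 3, 4 and 5 were cultures in serum-free medium at passages 2, 5 and 8. For the passaged cultures, donors 5, 6 and 10 were sorted for SCs (grown on laminin), donors 4, 7 and 8 for FAPs (grown on collagen), and donors 1, 2 and 9 were left unsorted. SCs of donors 4, 7 and 8 at Timepoints 3 and 4 were therefore cells left in a culture sorted for FAPs, and FAPs of donors 5, 6 and 10 were cells left in one sorted for SCs (donor 6 had only 7 FAPs at Timepoint 3 and gave no sum there).

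Each timepoint was analysed as 1 droplet library in which all donors were pooled, so that timepoint and library cannot be told apart. Timepoints 2, 3 and 4 have records of 2 runs each, and the count matrix of each is linked to run 1. For Timepoint 2 the labels list sorted as well as unsorted cells, and following the study's methods all of its donors were treated as unsorted. The 5 libraries held 4395, 9591, 8966, 10405 and 2772 kept cells with a median of 4184, 19375, 27239.5, 21620 and 18340 unique molecular identifiers (UMIs, counted RNA molecules), and pairs of libraries shared 4 to 29 cell barcodes. Cell types are those deposited by the authors, who had clustered the cells on these very expression data, so that labels and levels are not independent. The labels could be checked against marker genes, and summed SC markers at Timepoint 1 reached 1679 CPM (UMIs of a gene per 1000000 UMIs of the summed cells) in SCs and 55.2 CPM in FAPs, while summed FAP markers reached 30380 CPM in FAPs and 373 CPM in SCs. Myocytes of Timepoint 1 held 4914 CPM of FAP markers. At Timepoint 2 FAP markers summed to 1611 CPM in SCs and 4237 CPM in FAPs, and SC markers to 159 and 16.0 CPM. At Timepoint 3 FAP markers summed to 3601 CPM in SCs and 22106 CPM in FAPs. Levels below are CPM per donor, from the summed UMIs of at least 10 cells of a type, and errors are SD over donors. As the reads come from transcript ends, CPM was not divided by gene length, and levels are compared within a gene and not between genes. Where isoforms are set side by side, the values are shares of their counted UMIs, not corrected for how well each gene is captured, and only shares of the same pair are compared between cells. MYH1, MYH2, MYH3 and MYH8 are related genes of one family, and whether the counting shared reads between them was not tested.

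The first question was where fibre RNA lay in fresh muscle. For this, 31 of the genes were summed, leaving out 6 that other cells are known to use (TPM1, TPM2, TPM3, ATP2A2, DES and CRYAB) as well as ACTC1 and MYL4. The 45 myocytes carried 626 of these UMIs per cell, or 169499 CPM. FAPs carried 11.4 ± 1.66 per cell (SD, n = 10 donors, 9.60 to 14.1), SCs 6.44 ± 2.91 (3.85 to 13.96), VECs (vascular endothelial cells) 3.60 ± 1.43 (2.35 to 7.10) and SMMCs 2.16 ± 0.874 (1.43 to 4.48). Every other type held fibre UMIs too, with 4.99 ± 1.25 per macrophage, 4.85 ± 1.12 per lymphatic endothelial cell (n = 4 donors) and 5.22 per neutrophil over all cells.

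**Figure D1:**
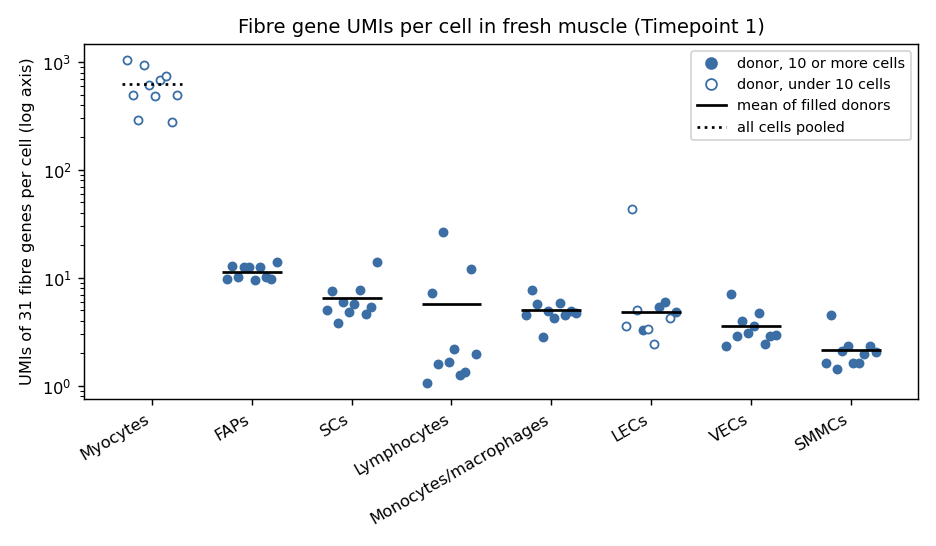
UMIs of the 31 fibre genes per cell (log axis) in each cell type at Timepoint 1; filled points are donors with at least 10 cells of the type, hollow points donors with fewer, solid bars the mean of the filled points and dotted bars the pooled value. Myocytes stand at 626 UMIs per cell, and the other types lie between 2.16 and 11.4 as means or pooled values.

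As CPM the 31 genes reached 1497 in SCs (937 to 2620) and 1910 in FAPs (1451 to 2317), with overlap. Neutrophils held more by this measure (2693 CPM over all cells), and lymphocytes ran up to 5836 CPM in 1 donor. With ACTC1 and MYL4 added (33 genes), the donors' mean was still lower in SCs. It was 1850 ± 752 CPM there (1024 to 3441) and 1912 ± 267 CPM in FAPs (n = 10 and 10). Over the pooled cells the order turned with the genes summed. The pooled sum was 1566 CPM in SCs and 1895 CPM in FAPs with 31 genes, and 2035 and 1897 CPM with 33. Per cell the 33 genes came to 8.08 ± 4.25 UMIs in SCs and 11.4 ± 1.65 in FAPs. What part free RNA in the droplets had in these levels was not tested. Depth differed between the types, with a median of 3861 UMIs per SC, 6213 per FAP and 2778.5 per VEC. The mix of genes varied between types. Skeletal actin (ACTA1) made up 17.5% of the summed UMIs in myocytes, 17.3% in VECs, 18.0% in SMMCs and 16.9% in SCs, but 24.3% in FAPs. Muscle creatine kinase (CKM) made up 6.14%, 8.28%, 6.46%, 7.04% and 11.4% in the same order. The slow troponin C gene TNNC1 was 8.56% in myocytes, 5.84% to 6.80% in VECs, SMMCs and SCs, and 3.83% in FAPs. Fast myosin heavy chain MYH1 was 0.45% in myocytes and 3.42% in FAPs, and ran from 0.76% in lymphocytes to 4.88% in macrophages. In SCs nebulin (NEB, 5.63%), the slow troponin I gene TNNI1 (3.76%) and the slow-fibre carbonic anhydrase CA3 (3.92%) held larger shares than in myocytes (1.55%, 1.14% and 0.89%) or FAPs (2.38%, 0.40% and 0.61%). These shares were not tested.

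The deposited matrix also holds barcodes that were not kept as cells. At Timepoint 1, 2817 barcodes with an ambiguous donor call held 52.5% of all UMIs of the 31 genes, while the 4395 kept cells held 27.5%. At least 10% of UMIs came from these genes in 238 of the ambiguous barcodes (8.45%), in 34 of 198 barcodes with no donor call (17.2%), and in 36 of the kept cells (0.819%). Among singlets and doublets that were not kept it was 0.831% and 1.24%. Median depth was 1561 UMIs in ambiguous barcodes, 1120 in those with no donor call and 4184 in kept cells.

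Myocytes were too few for a test between donors, since none of the 10 donors had 10 of them, and their values are given per cell. The share of UMIs from the 31 genes had a median of 18.5% per myocyte (3.03% to 33.6%). Of the 44 myocytes with at least 20 UMIs of fast and slow genes, 26 had over 90% fast UMIs, 12 had under 10%, and 6 lay between. Over all myocytes 65.8% of the fast and slow UMIs were fast, and the donors' own values ran from 8.64% (1 cell of donor 9) to 99.2% (2 cells of donor 1). Most single myocytes were therefore mainly fast or mainly slow. The pooled value weights cells by their UMIs, and single myocytes of donors 5 and 4 held 2029 and 1904 of the 12989 fast UMIs.

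**Figure D2:**
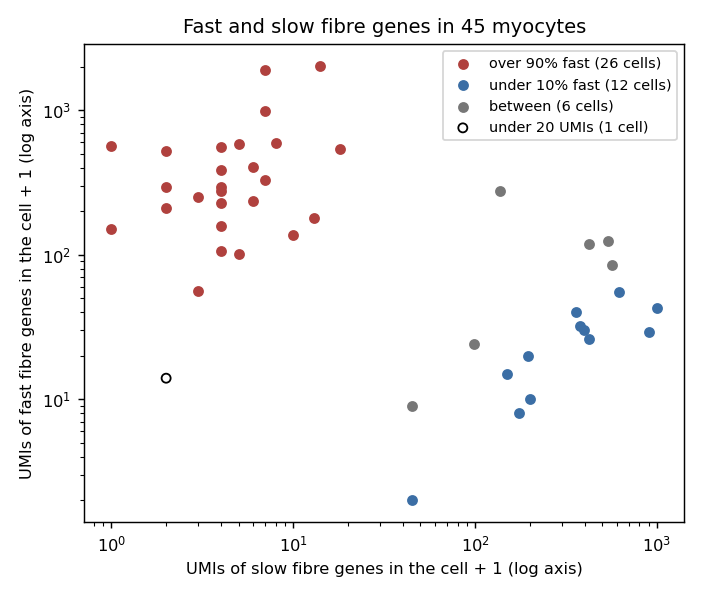
UMIs of slow genes against fast genes (each plus 1, log axes) in each of the 45 myocytes of Timepoint 1. A group of 26 cells lies over 90% fast and a group of 12 cells under 10% fast, with 6 between and 1 cell under 20 UMIs.

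Among the adult heavy chains of myocytes, MYH2 (fast, oxidative) had 192 UMIs, MYH7 (slow) 149 and MYH1 (fast) 126 of the 528 UMIs of the 5 heavy chain genes analysed. Developmental isoforms were found in few cells. All 36 UMIs of the neonatal MYH8 lay in 1 myocyte of donor 4. The same cell held 88 of the 94 UMIs of cardiac actin (ACTC1), an early actin of developing muscle, and 10 of the 25 UMIs of the embryonic MYH3. The other 15 MYH3 UMIs lay in 1 myocyte of donor 10. MYL4, the embryonic and atrial light chain, had 0 UMIs in myocytes. Parvalbumin (PVALB), a calcium buffer of fast fibres, had 0 UMIs in myocytes and 5 in FAPs.

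SCs and FAPs of the same 10 donors were then compared at Timepoint 1 gene by gene (edgeR quasi-likelihood F test). Here and below a gene is called where its Benjamini-Hochberg adjusted p is under 0.05 and its log2FC exceeds 1 in either direction. Of the 39 genes, 21 passed the filter on low counts, and 1 was higher and 3 were lower in SCs, where 6.54% of the 4450 genes tested were called higher and 13.4% lower. The median log2FC was −0.29 over these 21 genes and 0.03 over all genes tested. CRYAB, a small heat shock protein that binds desmin and titin, was the higher one. Its level ran from 351 through a median of 531 to 970 CPM in SCs and from 35.0 through 59.9 to 185 CPM in FAPs, without overlap and higher in 10 of 10 donors (log2FC 2.97, SE 0.26, adjusted p 1.51e-09). Thinned to 1500 UMIs per cell, 39.1% of SCs and 7.45% of FAPs had a CRYAB UMI.

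The lower ones were MYH1 (18.6 ± 18.1 against 61.5 ± 25.1 CPM, n = 10 and 10, log2FC −1.70), ATP2A1, the fast calcium pump (19.8 ± 11.2 against 44.8 ± 14.3 CPM, −1.11), and CKM (109 ± 51 against 211 ± 50 CPM, −1.02). ACTA1 was 247 ± 121 CPM in SCs (121, 205 and 512 as lowest, median and highest) and 479 ± 64 CPM in FAPs (382, 465 and 588), lower in 10 of 10 donors, with a log2FC of −0.98 that lay just inside the threshold. With donor as a replicate block it was −1.08 (edgeR adjusted p 1.35e-06) and was called lower, as it was by DESeq2 (−1.01), with no filter (−1.06) and with thinned sums (−1.11). The fast and slow partners did not pass the thresholds, with a log2FC of −0.49 for TNNC2 and 0.18 for TNNC1, −0.48 for TNNI2, −0.48 for TNNT3 and 0.25 for TNNT1, −0.29 for MYLPF and 0.64 for MYL2, −0.25 for MYL1, and −0.27 for ATP2A2. Desmin (DES), the intermediate filament of muscle cells, was higher in SCs of 10 of 10 donors, but its log2FC of 0.58 did not pass.

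Genes under the count filter, among them ACTC1, TNNI1 and CA3, have values only. ACTC1 was 0, 18.8, 22.1, 118, 138, 161, 725, 737, 781 and 821 CPM in SCs of donors 3, 1, 9, 8, 7, 4, 2, 5, 6 and 10, and 0 to 9.04 CPM in FAPs. It was higher in SCs in 9 of 10 donors, with donor 3 at 0 in SCs, so that the groups overlapped there. Thinned to 1500 UMIs, 6.97% of SCs, 0.0828% of FAPs and 0.215% of VECs had an ACTC1 UMI. TNNI1 was 54.7 ± 38.9 CPM in SCs and 9.20 ± 6.75 CPM in FAPs (n = 10 and 10, higher in 10 of 10 donors), and CA3 was 58.5 ± 39.7 and 12.1 ± 5.36 CPM (higher in 8 of 10). The filter left both untested. As an isoform pair, ACTA1 made up 99.7% of ACTA1 and ACTC1 UMIs in FAPs, 98.1% in myocytes, 98.4% in VECs and 36.1% in SCs (17.8% to 92.3% over donors). For the embryonic heavy chain MYH3 and for MYL4, SCs held 1.96 ± 3.58 and 1.32 ± 2.45 CPM (n = 10), against 0.589 ± 1.16 and 0.826 ± 1.21 CPM in FAPs (n = 10).

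VECs and SMMCs were compared with the same FAP samples, which all 3 comparisons at Timepoint 1 share. In each of the 3, genes low in one type could pass the filter through the other alone, so the counts and medians carry no weight. In VECs 1 of 21 tested genes was higher and 7 were lower, where 14.2% of 5309 genes were called higher and 13.1% lower. The higher one was the slow and widely used tropomyosin TPM3 (708 ± 107 against 306 ± 34.6 CPM, log2FC 1.21, 10 of 10 donors). Those lower were ATP2A1 (−1.85), DES (−1.79), MYH1 (−1.68), CRYAB (−1.58), ACTA1 (−1.38), CKM (−1.27) and NEB (−1.25). The median log2FC was −0.51 over these 21 genes and −0.00 over all genes.

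In SMMCs TPM1, TPM2 and desmin, which smooth muscle uses, were higher than in FAPs. Of 16 genes tested 5 were higher and 11 lower, where 9.94% of 4287 genes were called higher and 13.3% lower, with a median log2FC of −1.28 over the 16 and −0.04 over all. TPM2 reached 5263 ± 1760 CPM in SMMCs (2787, 5394 and 8987 as lowest, median and highest) against 154 ± 38.1 CPM in FAPs (log2FC 4.98), and TPM1 reached 2999.99 ± 955 against 218 ± 35.4 CPM (3.67). DES (log2FC 2.94), CRYAB (3.84) and the slow and cardiac calcium pump ATP2A2 (1.28) were also higher. CRYAB in SMMCs ran from 128 to 6515 CPM, with donor 8 at the top. The lower ones were MYH1 (−2.91), CKM (−2.53), ACTA1 (−2.21), TNNT3 (−1.84), MYL2 (−1.78), MYLPF (−1.49), TNNI2 (−1.46), TPM3 (−1.30), MYL1 (−1.26), TNNC2 (−1.19, and −0.91 and not called with thinned sums) and TNNC1 (−1.10). MYL4 did not pass the filter, and ran from 28.7 to 230 CPM in SMMCs against 0 to 3.70 CPM in FAPs, without overlap and higher in 10 of 10 donors. MYOM1 (27.4 ± 19.2 against 4.34 ± 3.46 CPM) and LDB3 (26.1 ± 18.5 against 9.82 ± 4.30 CPM, n = 10 and 10 for both) were also under it.

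The change into culture was tested in SCs, FAPs and VECs between Timepoints 1 and 2, on 9 and 10 donors. Adult fibre RNA was all but gone from each type after 72 h. The 31 genes summed to 0.239 ± 0.128 UMIs per SC (0.134 to 0.528, n = 9), 0.228 ± 0.0229 per FAP and 0.180 ± 0.113 per VEC, although cells of Timepoint 2 were deeper (a median of 18203 UMIs per SC). In SCs 4 of the 17 genes tested were higher and 13 lower, where 15.8% of 5221 genes were called higher and 18.5% lower, and their median log2FC was −6.82 against −0.01 over all genes. Most genes tested passed the filter only through Timepoint 1, where they were high, so the count itself carries no weight.

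In SCs ACTA1 went from 247 ± 121 to 0.0439 ± 0.0872 CPM (n = 10 and 9, log2FC −11.11, SE 0.43). MYL1, the fast essential light chain, was at 0 UMIs in SCs of all 9 donors at Timepoint 2, which made it at least 1052-fold lower, with 3 counts set over the group at 0. MYL2 (−10.47), CKM (−9.90), TNNI2 (−9.76), TNNT3 (−9.37), MYLPF (−7.95), TNNC2 (−7.12), TNNC1 (−6.82), TNNT1 (−6.33) and NEB (−5.06) fell too, without overlap between the timepoints. Fast and slow genes were both among those that fell. DES fell from 191 ± 84 to 46.6 ± 42.4 CPM (log2FC −2.08) and CRYAB from 571 ± 210 to 226 ± 67.6 CPM (−1.41). ACTC1 fell short of the filter, at 352 ± 361 and 3.86 ± 8.31 CPM, and was lower with donor as a replicate block (log2FC −7.17), as was myoglobin (MB, −8.28).

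Tropomyosins moved the other way in SCs. TPM2 rose from 136 ± 43.9 to 899 ± 91.6 CPM (log2FC 2.68), TPM1 from 292 ± 65.1 to 775 ± 158 CPM (1.33), and TPM3 from 253 ± 50.7 to 650 ± 52.3 CPM (1.32), each in 9 of 9 donors and without overlap. ATP2A2 rose from 45.8 ± 22.2 to 95.6 ± 10.9 CPM (1.04).

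In FAPs more genes passed the filter. Of 30 tested, 3 were higher and 25 lower, where 20.9% of 9208 genes were called higher and 22.5% lower, with a median log2FC of −7.56 over the 30 and 0.03 over all genes. In FAPs and VECs too, genes near 0 at Timepoint 2 passed the filter only through Timepoint 1, so these counts and medians carry no weight either. ACTA1 fell from 479 ± 64 to 0.103 ± 0.091 CPM (n = 10 and 9, log2FC −11.77), CKM (−11.67), MYL1 (−11.64), MYH1 (−11.27), TNNI2 (−11.09) and MYL2 (−10.27) fell too. MYH2 and the slow myosin-binding protein MYBPC1 were at 0 UMIs in FAPs of Timepoint 2, which made them at least 1299-fold and 811-fold lower. TPM2 (2.44), TPM1 (2.17) and TPM3 (1.62) rose. ATP2A2 was just inside the threshold (log2FC 1.00), and it was called with donor as a replicate block (1.06), by DESeq2 (1.04) and with no filter (1.27). CRYAB had a log2FC of 0.74 in FAPs and was not called, except with no filter (1.01).

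In VECs, 2 of 16 genes were higher and 11 lower, where 15.6% of 5896 genes were called higher and 19.6% lower, with a median log2FC of −6.68 over the 16 and −0.02 over all genes. ACTA1 had 0 UMIs in VECs at Timepoint 2 and was at least 787-fold lower. TPM1 (1.92) and TPM3 (1.07) rose in VECs, whereas TPM2 was 119 ± 41.5 CPM at Timepoint 1 and 123 ± 28.8 CPM at Timepoint 2 (n = 10 and 9, log2FC −0.03).

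Whether the fall differed between SCs and FAPs was tested with an interaction term over both types and timepoints. Of 33 genes tested, 6 had a higher and 3 a lower change in SCs, where 12.4% of 8751 genes were called higher and 7.60% lower. The median difference was 0.25 over the 33 genes and −0.03 over all. Many of the 33 passed the filter only through Timepoint 1, and MYBPC2 had 10 UMIs in SCs and 4 in FAPs at Timepoint 2, so the count carries no weight. DESeq2 called 4 more genes higher, MYH1 (3.22, adjusted p 0.00738), MYH2 (2.96, 0.0194), MYBPC1 (2.98, 0.0162) and LDB3 (3.04, 0.0123). At Timepoint 2 these had, in the same order, 0, 0, 0 and 1 UMIs in SCs and 1, 0, 0 and 0 in FAPs. With both types at the floor there, these 4 calls carry no weight. The change of ACTC1 was lower in SCs by 6.18 on the log2 scale (difference −6.18, edgeR adjusted p 0.00235), and those of CRYAB (−1.93) and TNNT1 (−1.37) were lower too. The change was higher, that is less of a fall, for MYBPC2 (3.48), TNNC1 (2.52), NEB (2.43), DES (2.03), TNNC2 (1.36) and ACTN3 (1.2005). Without donor 5, whose SCs stood apart at Timepoint 2, the differences of TNNC1 (2.22, adjusted p 0.0824) and MYBPC2 (2.14, adjusted p 0.112) were no longer called by edgeR, and with sums thinned to the smallest UMI total that of TNNC2 turned to −1.14 (not called).

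At Timepoint 2 SCs and FAPs of the same 9 donors could be compared directly. With the adult fibre genes near 0 in both types, 10 of the 39 genes passed the filter, of which 2 were higher and 2 lower in SCs. Over all 10827 genes 5.98% were called higher and 4.69% lower, and the median log2FC was −0.12 over the 10 and 0.01 over all. DES was 14.5, 17.9, 20.2, 30.8, 30.9, 40.1, 46.7, 67.8 and 151 CPM in SCs of donors 9, 1, 8, 6, 7, 10, 2, 4 and 5, and 4.67 to 10.7 CPM in FAPs (log2FC 2.62, SE 0.41, adjusted p 4.95e-05). The groups did not overlap, and donor 5 was the highest. CRYAB was 226 ± 67.6 CPM in SCs and 108 ± 69.7 CPM in FAPs (n = 9 and 9, 1.06, 0.97 and not called without donor 5). CASQ1, which stores calcium in fast fibres, and TNNT1 were lower in SCs (−1.52 and −1.13), at 1.02 ± 0.722 and 0.528 ± 0.444 CPM.

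NEB (2.91 ± 3.69 and 0.265 ± 0.242 CPM), TNNC1 (1.23 ± 1.32 and 0.0933 ± 0.12 CPM) and ACTC1 (3.86 ± 8.31 and 0.659 ± 0.227 CPM, n = 9 and 9 throughout) were under the filter. TNNC1 was higher in SCs in 9 of 9 donors without overlap. ACTC1 in SCs lay between 0.542 and 2.17 CPM in 8 donors and was 25.98 CPM in donor 5, so its mean rested on that donor. Thinned to 8000 UMIs, a DES UMI was found in 20.0% of SCs and 5.39% of FAPs, a NEB UMI in 2.24% and 0.17%, and an ACTC1 UMI in 1.17% and 0.71%.

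SCs of the passaged cultures carried fibre RNA again. At Timepoint 3 (passage 2) the 31 genes summed to 30.7 ± 26.1 UMIs per SC (2.84 to 72.6, n = 9) and 1.05 ± 0.243 per FAP (n = 8), and at Timepoint 4 to 70.9 ± 47.5 (3.70 to 126, n = 7) and 1.53 ± 0.425 (n = 9). At Timepoint 5 they summed to 90.03 ± 116 UMIs per SC (16.2 to 262, n = 4) and 1.52 ± 0.136 per FAP (n = 9). The SC values spread widely between donors while those of FAPs did not. Median depth at Timepoint 3 was 23881 UMIs per SC and 29540 per FAP.

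SCs were compared with FAPs at Timepoint 3, on 9 and 8 donors. Of 24 genes tested, 18 were higher and 1 lower in SCs, where 6.86% of 11471 genes were called higher and 7.13% lower, and the median log2FC was 4.21 over the 24 and 0.04 over all genes. Here too many passed the filter only through SCs, so the count and the median carry no weight. Of the thin filament, ACTC1 was 159, 168, 224, 311, 497, 532, 894, 1623 and 3432 CPM in SCs of donors 4, 7, 10, 9, 8, 1, 2, 6 and 5, and 13.3 to 31.4 CPM in FAPs, without overlap (log2FC 5.00, SE 0.63, adjusted p 9.21e-06). The lowest value came from a culture sorted for FAPs and the highest from one sorted for SCs, but donor 10, also sorted for SCs, had the third lowest. NEB ran from 27.2 through a median of 46.6 to 393 CPM in SCs and from 0 through 0.815 to 24.0 CPM in FAPs (log2FC 6.58). The 24.0 CPM came from 12 FAPs of donor 10, and the other FAP values were at most 1.53 CPM.

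Troponins were higher in slow and fast forms. TNNC2 ran from 10.8 through 220 to 585 CPM in SCs and from 1.60 through 5.05 to 10.7 CPM in FAPs (log2FC 5.62), and TNNC1 from 8.19 through 78.1 to 228 CPM and from 1.17 through 1.65 to 2.67 CPM (5.66). TNNI1 (6.09) was higher with no overlap between SCs and FAPs, and TNNI2 (4.83), TNNT3 (4.53) and TNNT1 (4.33) were higher with overlap. ACTA1 was 1.35 to 342 CPM in SCs and 1.60 to 5.34 CPM in FAPs (5.28), with donor 7 below the lowest FAP value.

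Of the thick filament, MYLPF, the fast regulatory light chain, was 602 ± 545 CPM in SCs (16.2, 431 and 1475 as lowest, median and highest) and 12.2 ± 3.21 CPM in FAPs (5.34, 12.7 and 16.0), with a log2FC of 5.48. MYH3 was 60.9 ± 65.3 CPM in SCs (1.35 to 199) and 0.870 ± 0.578 CPM in FAPs (5.55), the only heavy chain that passed the filter. MYL1 (4.02), MYL4 (3.80) and the M-line gene MYOM1 (4.08) were higher as well. Of the Z-disc and scaffold genes, DES was 161 ± 136 CPM against 5.04 ± 3.25 CPM (5.22), and ACTN3 (3.35), CRYAB (1.57) and MYOZ1 (1.10) were higher. The call of MYOZ1 was lost with donor as a replicate block (0.77, edgeR adjusted p 0.207), without donor 5 (0.90, 0.135), with no filter (1.06, 0.0561) and with at least 30 cells per sum (0.90, 0.0584). CASQ1 was lower (−1.95, 0.725 ± 0.898 against 1.70 ± 0.858 CPM).

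The tropomyosins, which rose in SCs and in FAPs on entry into culture, and the calcium pump ATP2A2 were not called between SCs and FAPs at Timepoint 3. TPM1 was 1394 ± 327 CPM in SCs and 1326 ± 307 CPM in FAPs (log2FC 0.01), TPM2 1943 ± 158 and 1762 ± 491 CPM (0.07), TPM3 542 ± 111 and 637 ± 250 CPM (−0.23), and ATP2A2 69.1 ± 8.83 and 69.5 ± 5.69 CPM (−0.08, n = 9 and 8 throughout). CKM (13.4 and 0.288 CPM), MYL2 (11.9 and 0.174 CPM) and MYH7 (2.04 and 0.0198 CPM) were under the filter. CKMT2, MYL3, MYH1, MYH2, MYH8, ACTN2, MYBPC1, MYBPC2, ATP2A1, LDB3, PVALB and CA3 were also under it, at means of 0.0035 to 3.52 CPM in SCs.

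**Figure D3:**
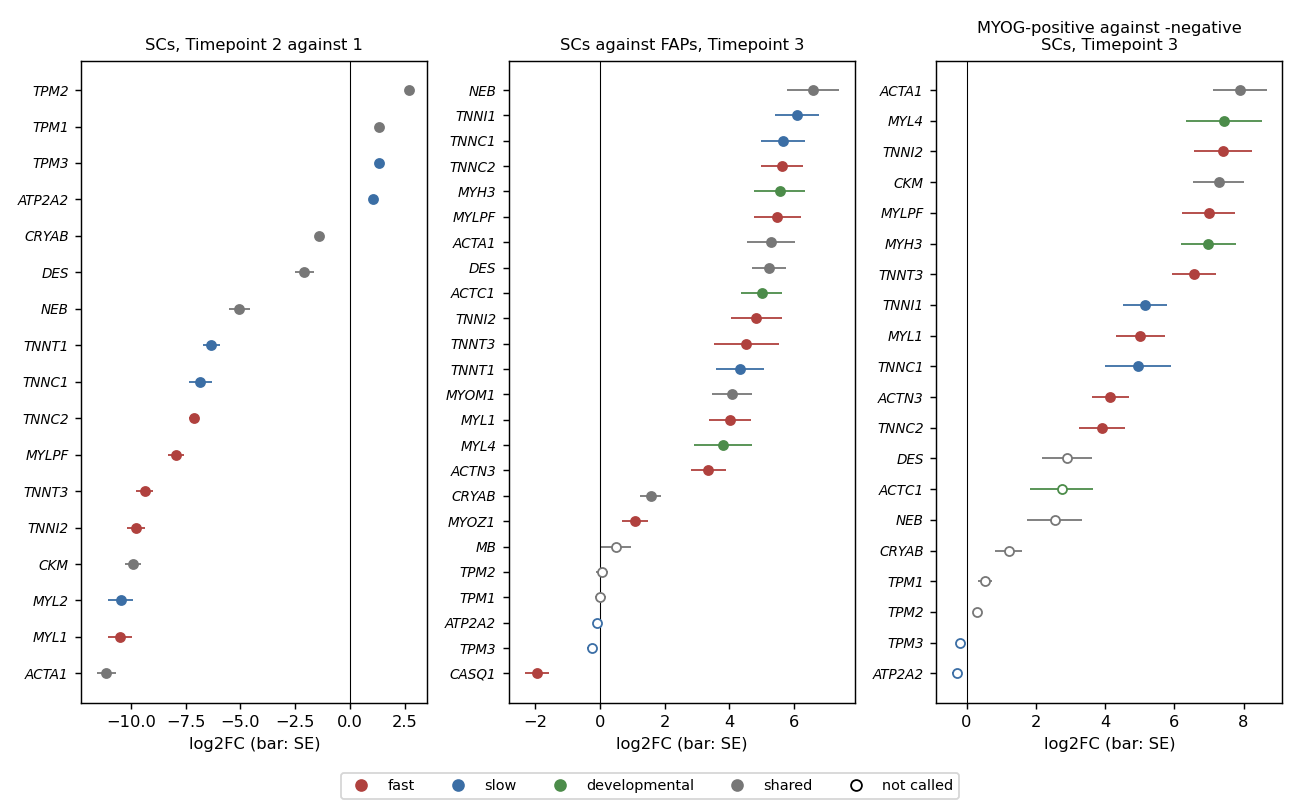
The log2FC of each tested gene in 3 comparisons, SCs at Timepoint 2 against Timepoint 1, SCs against FAPs at Timepoint 3, and MYOG-positive against MYOG-negative SCs at Timepoint 3; bars are SE, filled points were called, and colours give the fibre class. ACTA1 lies at −11.11 in the first panel, 5.28 in the second and 7.90 in the third, while TPM2 lies at 2.68 in the first and 0.07 in the second.

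The level in FAPs of the same library was set against that in SCs gene by gene, since FAPs are not known to use most of them. Over the 33 genes with at least 30 UMIs in SCs at Timepoint 3, the FAP level was a median of 5.15% of the SC level, and it was 4.38% over the 27 left without TPM1, TPM2, TPM3, ATP2A2, DES and CRYAB. It was 0.556% for NEB, 0.981% for MYH7, 1.29% for TNNI1, 1.66% for ACTC1, 1.76% for TNNC2, 1.86% for DES, 2.30% for MYH3, 2.62% for MYLPF and 2.78% for ACTA1. It was highest for 10 genes, with 15.3% for MYL4, 36.9% for MYOZ1, 39.9% for CRYAB, 53.5% for MYL3, 69.2% for MB, 81.8% for TPM3, 100.9% for TPM1, 108% for TPM2 and 110% for ATP2A2, and CASQ1 reached 369%. The median was 4.44% at Timepoint 4 (33 genes) and 2.17% at Timepoint 5 (18 genes). Genes entered by their UMIs in SCs, and the set differed between timepoints, so these medians carry no weight. CASQ1, for example, had 0 UMIs in SCs and 82 in FAPs at Timepoint 5 and was left out there. What part free RNA had in these FAP levels was not tested.

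Which isoforms cultured SCs used was read from pairs within the thin and thick filament. The shares pool the UMIs of all SCs. For genes such as ACTA1, MYL2, TNNI2 and TNNT3, few SCs of Timepoint 3 held most of these UMIs (below). Of ACTA1 and ACTC1 UMIs in SCs at Timepoint 3, 5.0% were ACTA1 (0.8% to 35.8% over donors), and at Timepoints 4 and 5 it was 5.5% and 11.2%, against 98.1% in myocytes of fresh muscle. Of the 5 heavy chain genes, MYH3 gave 5200 of 5491 UMIs (94.7%) in SCs at Timepoint 3, 97.8% of 7873 at Timepoint 4 and 98.4% of 560 at Timepoint 5. MYH7 gave 276 UMIs at Timepoint 3, MYH8 11, MYH2 3 and MYH1 1. In fresh muscle MYH3 was 25 of the 528 heavy chain UMIs of myocytes. FAPs of the Timepoint 3 library had like shares for some genes at far fewer UMIs, with MYH3 at 177 of 182 heavy chain UMIs (97.3%), ACTA1 at 8.1% of the actin pair and MYLPF at 98.2% of MYLPF and MYL2. Other pairs differed between FAPs and SCs. MYL1 was 57.7% and 93.4% of MYL1 and MYL3, TNNI2 78.0% and 53.1% of TNNI2 and TNNI1, and MYL1 19.2% and 41.6% of MYL1 and MYL4. The actin UMIs of cultured SCs were mostly of ACTC1 and those of myocytes mostly of ACTA1. Sharing of reads between the heavy chain genes was not tested.

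Fast and slow partners were set side by side as pooled shares of their UMIs. At Timepoint 3 the fast gene gave 97.1% of MYLPF and MYL2 UMIs in SCs and 93.4% of MYL1 and MYL3 UMIs. It gave 77.6% of TNNC2 and TNNC1 UMIs (48.5% to 92.4% over donors), 53.1% of TNNI2 and TNNI1 UMIs and 44.0% of TNNT3 and TNNT1 UMIs. It gave 3.3% of ATP2A1 and ATP2A2 UMIs, the latter pump being used by many cell types. Of MYL1 and its developmental partner MYL4, 41.6% were MYL1. Donors differed in the light chains, from 57.1% to 100% fast for MYL1 against MYL3 (5 donors) and from 2.6% to 62.6% for MYL1 against MYL4 (7 donors). The troponins differed between donors as well, from 30.95% to 93.3% fast for troponin I (median 41.1%) and from 21.1% to 96.7% for troponin T (median 33.3%, 7 donors each). The slow troponin I was thus ahead in the median donor although the fast one was ahead in the pool. At Timepoints 4 and 5 the pooled fast share was 61.6% and 37.4% for troponin I and 68.5% and 7.7% for troponin T, the last from 155 UMIs. The donors' medians at Timepoint 4 were 74.2% and 69.4% (6 donors each), and at Timepoint 5 only 3 and 2 donors had 20 UMIs of these pairs. The pooled share was 83.9% and 75.3% for TNNC2 and TNNC1 and 98.6% and 96.0% for MYLPF and MYL2. In myocytes the same pairs were 60.4% (MYLPF), 81.9% (MYL1), 57.1% (TNNC2), 85.7% (TNNI2), 63.9% (TNNT3) and 83.5% (ATP2A1) fast. Both sets pool the UMIs of all donors, and no test was run between them.

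From Timepoint 2 to Timepoint 3, SCs of the same 9 donors were compared on the change with passaging. Of 12 genes tested 8 rose and 0 fell, where 6.15% of 9793 genes were called higher and 3.90% lower (edgeR, with 2 of the 12 lower at an unadjusted p below 0.05), and the median log2FC was 2.35 over the 12 and 0.00 over all. Genes near 0 at Timepoint 2, such as MYLPF and TNNC2, passed the filter only through Timepoint 3, so the count carries no weight. MYLPF rose by 10.11 on the log2 scale, TNNC2 by 8.32, ACTC1 by 8.11, TNNC1 by 6.69, NEB by 5.37, ACTN3 by 2.89, DES by 1.81 and TPM2 by 1.15. MYLPF, TNNC2, ACTC1, TNNC1, NEB and TPM2 were higher in 9 of 9 donors without overlap. Genes under the filter included ACTA1 (0.0439 and 96.0 CPM as means) and MYH3 (0.0610 and 60.9 CPM), each higher in 9 of 9 donors without overlap. This comparison and the previous ones share the SCs of Timepoints 2 and 3.

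**Figure D4:**
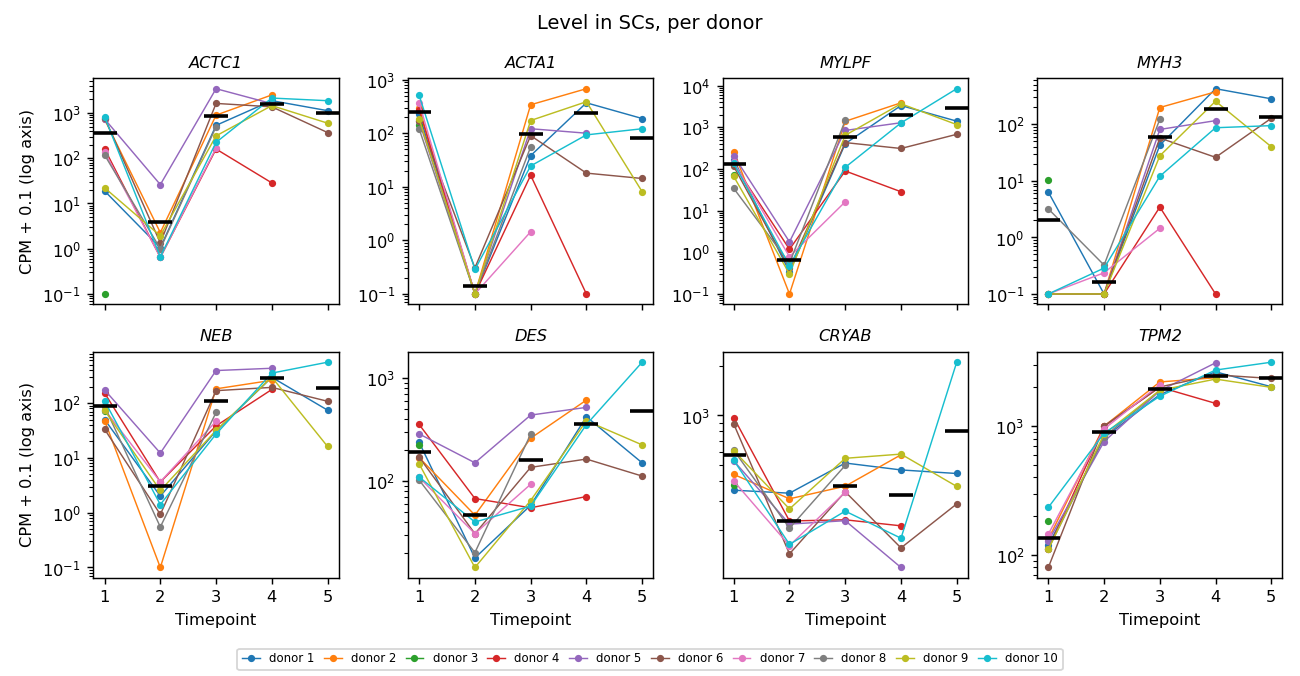
CPM plus 0.1 (log axis) in SCs of each donor with at least 10 SCs, at Timepoints 1 to 5, for ACTC1, ACTA1, MYLPF, MYH3, NEB, DES, CRYAB and TPM2; black bars are means and points at 0.1 stand for 0 UMIs. The means of ACTC1, ACTA1, MYLPF, NEB, DES and CRYAB drop at Timepoint 2. MYH3 has only 3 UMIs over all SCs at Timepoint 1 and 3 at Timepoint 2. These genes lie over 1 CPM in each of the 9 donors at Timepoint 3, while TPM2 stays between 1707 and 2205 CPM at Timepoint 3.

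The later passages were compared with the one before. From Timepoint 3 to Timepoint 4 (9 and 7 donors) 0 of 26 genes tested were called by edgeR, where 0.440% of 9780 genes were, although 14 of the 26 were higher at an unadjusted p below 0.05 and the median log2FC was 1.52 (−0.01 over all genes). DESeq2 called 1 of them, ATP2A1 (log2FC 2.46, adjusted p 0.0324). ACTC1 was 28.4, 1365, 1452, 1604, 1868, 2132 and 2499 CPM in SCs of donors 4, 6, 9, 5, 1, 10 and 2 at Timepoint 4 (log2FC 0.91). It was higher than at Timepoint 3 in 4 of 7 donors. MYLPF was 28.4 to 3883 CPM (1.77), MYH3 0 to 429 CPM (1.74), NEB 177 to 433 CPM (1.42, higher in 7 of 7 donors) and DES 70.9 to 612 CPM (1.25, 7 of 7). Only 10 SCs stood behind donor 4, from a culture sorted for FAPs.

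From Timepoint 4 to Timepoint 5 (7 and 4 donors) 0 of 23 genes were called by edgeR, where 0.456% of 7454 were, with 0 higher and 2 lower at an unadjusted p below 0.05 and a median log2FC of −0.10 (0.00 over all genes). DESeq2 called CKM lower (−4.92, adjusted p 0.0196). SCs of donors 1, 6, 9 and 10 numbered 54, 25, 12 and 36 at Timepoint 5. MYLPF was 1411, 680, 1166 and 8476 CPM in them, ACTC1 1122, 369, 595 and 1863 CPM, and MYH3 284, 128, 40.2 and 95.1 CPM. The values of donor 10 stood above the rest for MYLPF and ACTC1 but not for MYH3.

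The UMIs of fibre genes were also spread unevenly over the cells. In SCs of Timepoint 3, the 40 SCs with the most UMIs of a gene (1% of 3979) held 98.0% of all MYL2 UMIs, 93.5% of TNNI2, 92.3% of CKM, 91.7% of TNNT3, 91.2% of MYL4 and 89.6% of ACTA1. They held 77.3% of MYL1, 73.7% of MYH3, 63.9% of MYLPF, 56.2% of TNNI1, 51.8% of TNNC1 and 34.7% of TNNC2. The values were lowest for NEB (22.4%), DES (21.9%), ACTC1 (16.6%) and CRYAB (12.6%), whereas the 40 deepest SCs held 2.38% of all UMIs. The 40 cells were taken over all donors together, gene by gene on the UMIs they hold, so the shares describe spread and are no test.

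**Figure D5:**
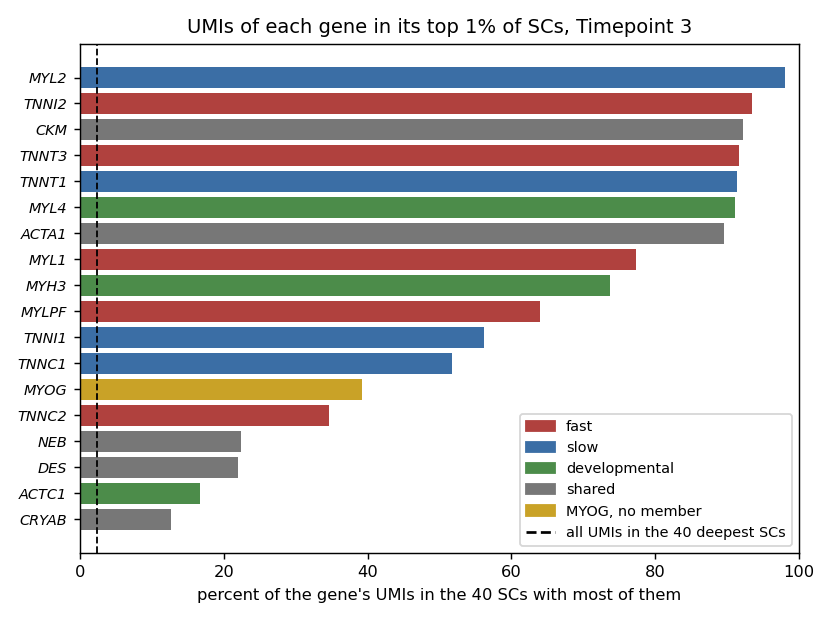
Percent of a gene's UMIs held by the 40 Timepoint 3 SCs (1%) that have the most of them, for 17 fibre genes and MYOG; the dashed line marks the 2.38% of all UMIs held by the 40 deepest SCs. The values run from 12.6% for CRYAB to 98.0% for MYL2.

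The share of SCs with a UMI also differed from gene to gene, and these shares are not corrected for how well each gene is captured. With each cell thinned to 8000 UMIs (3871 SCs and 4936 FAPs, with 108 and 51 shallower cells left out), ACTC1 was found in 48.1% of SCs and 18.5% of FAPs, and DES in 34.7% and 2.82%. NEB was found in 30.8% and 0.69%, TNNC2 in 29.7% and 3.89%, and MYLPF in 17.7% and 9.66%. MYH3 was found in 5.22% and 1.07%, ACTA1 in 4.24% and 2.15%, TNNI1 in 4.06% and 0.10%, and MYL2 in 0.80% and 0.24%. Unthinned, ACTC1 was in 68.4% and 51.6%, ACTA1 in 8.19% and 6.46% and MYH3 in 8.42% and 3.17%. At Timepoint 4 ACTC1 was found in 52.2% of thinned SCs and 19.1% of FAPs, NEB in 46.9% and 0.92%, DES in 50.0% and 4.66%, and MYLPF in 34.9% and 19.7%.

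A small number of SCs were rich in the 31 fibre genes summed above. These leave out ACTC1, which had 160991 UMIs in SCs at Timepoint 3, against 130635 for the 31 genes together. Its UMIs were spread more evenly than those of most fibre genes, and the shares with ACTC1 added were not tested. At least 1% of UMIs came from the 31 genes in 89 of 3979 SCs at Timepoint 3 (2.24%), and these cells held 66.3% of the genes' UMIs in SCs. In 17 SCs the share lay within 10% of that limit, and the highest share was 12.5%. At Timepoint 4 there were 158 of 3586 such SCs (4.41%, 72.2% of the UMIs), at Timepoint 5 18 of 156 (11.5%, 84.3%), and at Timepoint 2 0 of 2282, the highest there being 0.0478%. FAPs over 1% numbered 0 at Timepoints 2 to 5. At Timepoint 3 the rich cells came from 8 of 9 donors, 55 of them from donor 5 (4.89% of its SCs), 19 from donor 6 (1.75%), 5 from donor 2 (4.10%) and 3 from donor 10 (0.275%). At Timepoint 4 donor 10 gave 66 (6.13%) and donor 1 40 (11.3%). At Timepoint 5 the 18 rich cells had a median of 5603 UMIs against 15514.5 in the others, but the 10 cells over 2% had 17438.5 against 15356.

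A MYOG UMI was found in 85 of the 89 rich cells at Timepoint 3 in 146 of the 158 at Timepoint 4 and in 15 of the 18 at Timepoint 5. In fresh muscle 8 of 647 SCs (1.24%) and 14 of 1231 FAPs (1.14%) were over 1%, and 1 of these SCs and 0 of these FAPs had a MYOG UMI. Among all SCs of Timepoint 3, 654 had a MYOG UMI (16.4%), against 401 FAPs (8.04%), at median depths of 23881 and 29540 UMIs. MYOG-positive SCs had a median of 24617.5 UMIs and MYOG-negative SCs 23762.

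Fibre genes were therefore compared between SCs with and without a MYOG UMI at Timepoint 3, summed per donor for the 7 donors with at least 10 of each (donors 1, 2, 4, 5, 6, 9 and 10). Of 20 genes tested 12 were higher and 0 lower in MYOG-positive SCs (edgeR; 18 higher and 0 lower at an unadjusted p below 0.05), where 1.05% of 9484 genes were called higher, and the median log2FC was 4.56 over the 20 and −0.04 over all genes. Genes low in MYOG-negative SCs, among them CKM, MYL4 and ACTA1, passed the filter only through the MYOG-positive sums. Here too the count carries no weight, and neither do the calls of such genes. ACTA1 was 93.7 to 1769 CPM in MYOG-positive SCs and 2.02 to 4.94 CPM in MYOG-negative SCs, without overlap (727 ± 700 and 3.41 ± 1.13, n = 7 and 7, log2FC 7.90, SE 0.77, adjusted p 0.000217). In FAPs ACTA1 was 2.61 ± 1.15 CPM. MYL4 (7.43), TNNI2 (7.40), CKM (7.28), MYLPF (6.99), MYH3 (6.98), TNNT3 (6.56), TNNI1 (5.15), MYL1 (5.02), TNNC1 (4.95), ACTN3 (4.16) and TNNC2 (3.91) were also higher, each in 7 of 7 donors. With at least 30 cells per sum, which leaves donors 5, 6 and 10, ACTA1 (7.48), CKM (6.57) and MYL4 (5.58) were called. By the same filter, the calls of CKM and MYL4 carry no weight here either. The other 9 were higher but not called, from TNNC2 (2.75, edgeR adjusted p 0.535), TNNC1 (3.19, 0.508), ACTN3 (3.74, 0.0868), TNNI1 (4.35, 0.0974) and MYL1 (4.40, 0.165) to MYLPF (5.67, 0.105), MYH3 (6.08, 0.0692), TNNT3 (6.44, 0.127) and TNNI2 (6.65, 0.0621).

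Another 4 genes were higher on average in MYOG-positive SCs without passing the test. ACTC1 was 449 to 7757 CPM in MYOG-positive SCs and 39.4 to 2087 CPM in MYOG-negative SCs, higher in 7 of 7 donors, and was not called (log2FC 2.74, edgeR adjusted p 0.216, and 3.52 with 0.0269 with donor as a replicate block). DES (2.91, adjusted p 0.0704, and 3.20 with 0.0178 under the block), NEB (2.55, 0.188, and 2.89 with 0.0101) and CRYAB (1.22, 0.197, and 1.08 with 0.0249) were likewise not called but were called with the block. DESeq2 called all 4 (adjusted p 0.036 for ACTC1, 0.00183 for DES, 0.0343 for NEB and 0.0412 for CRYAB), and edgeR called CRYAB with 2 or more MYOG UMIs (1.60, adjusted p 0.0117). Their levels in MYOG-negative SCs (523 ± 771, 72.6 ± 93.0, 66.3 ± 87.2 and 299.8 ± 106 CPM, n = 7) stood above those of FAPs, at 24.6 ± 5.11, 5.04 ± 3.25, 3.68 ± 8.22 and 122 ± 72.4 CPM (n = 8). With at least 30 cells per sum 4 of 27 fibre genes were called, where 13 of all 11408 genes tested were. With 2 or more MYOG UMIs 22 of 29 were called, where 749 of all 11301 were.

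Other genes of muscle were counted in 4 further lists, namely other sarcomere and Z-disc genes (34 found of 35), excitation and calcium handling (16 of 18), fibre metabolism (16 of 16), and myogenic regulators and fusion (16 of 16). As with the fibre genes, genes of these lists that were near 0 in one group could pass the filter only through the group where they were high, so in each comparison below the counts and medians of the lists describe the tested genes and carry no weight. In fresh muscle SCs were compared with FAPs on these lists, where 6.54% of all genes tested were called higher and 13.4% lower. Of other sarcomere genes 3 of 4 tested were higher, namely FLNC (3.02), a Z-disc filamin, KLHL41 (2.91) and PDLIM3 (1.19). All 4 tested excitation genes were higher, among them the acetylcholine receptor subunits CHRNA1 (7.36) and CHRNB1 (3.06) and STAC3 (5.90), a partner of the muscle calcium channel. Of 8 regulators 4 were higher (MYF5 8.94, MYOD1 6.62, MYF6 6.34, NCAM1 2.63), and of 5 metabolic genes FABP3 was higher (3.43) and AK1 lower (−2.26).

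On entry into culture 3 of the 4 lists had mostly lower genes in SCs, where 18.5% of all genes were called lower and 15.8% higher. All 4 tested sarcomere genes were lower (KLHL41 −5.70, PDLIM3 −5.65, ANKRD1 −3.29, FLNC −1.59), as were all 4 excitation genes (STAC3 −6.83, CHRNA1 −4.36, JSRP1 −4.26, CHRNB1 −3.56). Of 10 regulators 8 were lower (MYMK, the fusion gene, −9.90, MYOG −8.85, CDKN1C −5.48, MYOD1 −4.71). Of 4 metabolic genes COX7A1 was lower (−2.64) and FABP3 higher (2.06). At Timepoint 2, where 5.98% of all genes were called higher in SCs than in FAPs, SCs exceeded FAPs in 5 of 8 sarcomere genes (ANKRD1 3.38, TRIM63 3.20, FLNC 2.47, KLHL41 2.14), 5 of 7 excitation genes, 2 of 7 metabolic genes (EEF1A2 3.56, ENO3 2.84) and 5 of 9 regulators (PAX7 5.02, MYF5 4.36).

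At Timepoint 3, 13 of 17 sarcomere genes were higher in SCs than in FAPs and 1 lower (XIRP1 6.09, TNNT2, the cardiac and embryonic troponin T, 5.59, KLHL41 5.50, MYOZ2 5.05), with a median log2FC of 3.31. All 12 tested excitation genes were higher (CACNG1 5.17, CHRNG 4.88, JPH1 4.84, CHRNA1 4.74, median 4.00), as were 11 of 14 regulators (PAX7 6.97, NCAM1 5.96, MYMK 5.90, MYF5 5.45) and 6 of 11 metabolic genes (NMRK2 5.82, EEF1A2 5.00, ENO3 4.10, COX8B 3.68). CHRNG encodes the fetal subunit of the acetylcholine receptor. The medians were 1.02 for metabolic genes and 4.19 for regulators, against 0.04 over all genes, of which 6.86% were called higher and 7.13% lower.

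From Timepoint 2 to 3 in SCs, where 6.15% of all genes were called higher and 3.90% lower, 8 of 10 sarcomere genes rose and 1 fell (TNNT2 6.69, KLHL41 4.96, TRIM63 −4.35, XIRP1 3.60), 4 of 6 excitation genes rose (CHRNG 5.36), 2 of 7 metabolic genes rose (ENO3 3.24, SLC25A4 1.23) and 5 of 11 regulators rose (MYOG 6.49, CDKN1C 3.87, MYOD1 3.50, MYF5 1.21). None of the 4 lists had a gene called by edgeR between Timepoints 3 and 4 or between 4 and 5. In MYOG-positive SCs, where 1.05% of all genes were called higher, 11 of 14 sarcomere genes were higher (PDLIM3 6.39, MYOZ2 5.18, MYL6B 4.56, KLHL40 3.97), 4 of 7 excitation genes (STAC3 4.29, CHRNG 2.70, RYR1 2.59, JPH1 1.94), 3 of 9 metabolic genes (COX8B 3.83, NMRK2 3.29, SLC25A4 1.56) and 4 of 13 regulators, MYOG itself among them, which chose the cells (MYMK 5.55, CDKN1C 3.14, JAM3 1.11).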

How the data were processed

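Single cells were measured in 1 library per timepoint. The deposited values are raw UMI counts per gene and barcode; the authors had aligned the reads with Cell Ranger 6.0.1 to genome build ARS-UCD1.2 and counted UMIs per gene. The other values in the deposited tables (37 columns) and a rescaled combined table were not used. The percent of mitochondrial UMIs that the authors deposited per cell was not used. Donors came from the authors' demuxlet calls on genotypes, and kept cells were singlets within 3 median absolute deviations in the authors' quality control; doublets within a donor could not be removed and no other caller was run. The genome assembly of the gene table at hand differs from ARS-UCD1.2, so no coordinates or sequences are given.

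UMIs were summed per donor and deposited cell type, with at least 10 cells per sum, and replicates are donor animals. Sums were compared in edgeR 4.0.16 (R 4.3.3) with TMM factors, genes kept by filterByExpr and a robust quasi-likelihood F test, across all genes and adjusted by Benjamini-Hochberg over all of them. Calls needed an adjusted p under 0.05 and a log2FC over 1 in size. Tests compare the spread between animals; with 1 library per timepoint they cannot remove a library effect. Same-numbered sums come from the same animal, and their deviations correlated at a median of 0.0109 to 0.45 over comparisons. Alternatives were donor as a replicate block, DESeq2 1.42.0, no filter, at least 30 cells, thinned sums, leaving out donors where a group had few, and, chosen after seeing the data, leaving out donor 5. Shares of cells were taken after thinning each cell to 8000 UMIs (1500 in muscle); 4000 and no thinning were alternatives. Per-cell shares cover counting of UMIs in these droplets only.

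The 40 genes and the other gene lists were chosen with earlier results of these data known. Named with values are the called fibre genes (the 10 with the largest absolute log2FC, or all where fewer), the fast and slow partners, the developmental genes, ACTA1, CKM and DES, and up to 4 called genes of each other list; a few more were named after their values were seen. On data simulated from the real sums, 89.39% (MYOG classes, 9484 genes) to 100% of genes changed by a log2FC of 2 were recovered. Only genes that passed the filter and were expected even in the smallest sum were changed, so sparser genes are not covered.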

Additional observations from a re-analysis of the deposited data

Results flagged for a closer look

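Single donors stood apart from the rest in 18 of 52 per-donor series of a gene in a cell type, where chance alone gives about 1 in 20 for independent, normally distributed values; these series share donors and cells and are skewed, so the number is no test. At Timepoint 1, ACTA1 of donor 2 was 374 CPM in VECs (nearest other donor 217) and 294 CPM in SMMCs (141). At Timepoint 2, SCs of donor 5 were the highest for ACTC1 (25.98 CPM, nearest 2.17), NEB (12.1, nearest 3.57) and DES (151, nearest 67.8). At Timepoint 3 they were again the highest for ACTC1 (3432 CPM, nearest 1623) and NEB (393, nearest 182), while ACTA1 was highest in donor 2 (342, nearest 174) and TNNT3 in the 18 SCs of donor 8 (173, nearest 17.6). At Timepoint 4 MYL4 of donor 2 was 240.0 CPM (nearest 75.2). At Timepoint 5 the 36 SCs of donor 10 held 8476 CPM of MYLPF (nearest 1411), 1667 of TNNC2 (nearest 444), 558 of NEB (nearest 108), 1427 of DES (nearest 225) and 249.9 of MYL2 (nearest 47.3). The 12 FAPs of donor 10 at Timepoint 3 were the lowest for ACTC1 (13.3 CPM, nearest 24.0) and MYLPF (5.34, nearest 11.2) and the highest for NEB (24.0, nearest 1.53).

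The change from Timepoint 1 to Timepoint 2 differed between SCs and FAPs by an interaction term for 9 of 33 genes tested (edgeR, adjusted p, with 4 more called by DESeq2), where 12.4% of 8751 genes had a higher and 7.60% a lower change in SCs. It was lower in SCs for ACTC1 (−6.18, 0.00235), CRYAB (−1.93, 0.000367) and TNNT1 (−1.37, 0.0151), and higher for MYBPC2 (3.48, 0.00301), TNNC1 (2.52, 0.0264), NEB (2.43, 0.00187), DES (2.03, 0.00096), TNNC2 (1.36, 0.0023) and ACTN3 (1.2005, 0.00593). Many of the 33 genes passed the filter only through Timepoint 1, so the count carries no weight. Neither do the 4 calls of DESeq2, whose genes were at the floor in both types at Timepoint 2. The calls of TNNC1 and MYBPC2 were lost without donor 5, and the difference of TNNC2 turned to −1.14 with thinned sums.

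Barcodes that were not kept as cells held fibre RNA at Timepoint 1. Of the 2817 with an ambiguous donor call, 8.45% had at least 10% of their UMIs from the 31 fibre genes, against 0.819% of kept cells. The ambiguous barcodes were shallower, with a median of 1561 UMIs against 4184 in kept cells. Among singlets and doublets that were not kept, 0.831% and 1.24% had such a share.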

How the results depend on the processing

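Of 1469 values of single genes under the alternatives, 1426 were counted as unchanged, 17 lost the call and 25 gained it. The direction of 1 called gene reversed (TNNC2 in the interaction, −1.14 with thinned sums). A gene called in neither fit was counted as unchanged whatever its direction. Donor as a replicate block, which pairs sums of 1 animal, changed 9 of 261 such calls, namely the 7 given in the text above and MB (−1.01) and MYOZ1 (−1.04), called lower in VECs at Timepoint 1, and no other. It also tested 3 genes that the filter had left out, ACTC1 and MB in SCs (above) and LDB3 in FAPs (−9.11) between Timepoints 1 and 2. Under the block 5 called genes fell below the filter and had no value, namely DES in VECs at Timepoint 2 and MYL1, TNNI2, TNNT3 and MYOM1 in SCs against FAPs at Timepoint 3. It moved the counts of all genes called to 231 (Timepoint 4 against 3), 97 (5 against 4) and 168 (MYOG classes). Timepoint 1 cells were shallow and SCs few at Timepoint 5, which limits what could be tested there.

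With no filter on low counts, fibre genes called against FAPs at Timepoint 1 were 12 of 39 tested (SCs), 30 of 39 (SMMCs) and 14 of 39 (VECs). For Timepoint 2 against 1 they were 38 of 39 (SCs) and 30 of 38 (VECs). For SCs against FAPs at Timepoints 2 and 3 they were 9 of 36 and 29 of 39. For SCs at Timepoint 3 against 2 they were 26 of 39, and for the MYOG classes 23 of 39. All genes called were then, in the same order, 2984 of 15465, 2859 of 15308, 4010 of 15636, 5286 of 15910, 6925 of 17078 (FAPs, Timepoint 2 against 1), 5030 of 15179, 2052 of 16958, 2814 of 17046, 2097 of 16724 and 268 of 16211. With sums thinned to the smallest total, fibre genes called at Timepoint 1 were 6 of 7 tested (SMMCs) and 4 of 13 (VECs). For Timepoint 2 against 1 they were 6 of 6 (SCs), 14 of 16 (FAPs) and 5 of 6 (VECs), and in the interaction 2 of 9. For SCs against FAPs at Timepoints 2 and 3 they were 2 of 6 and 6 of 10. For Timepoint 3 against 2 they were 3 of 7, and for the MYOG classes 4 of 12. All genes called were then 327 of 1433 (SCs), 367 of 1202 and 916 of 3112 at Timepoint 1, and 505 of 1476, 1614 of 3870 and 1144 of 3158 for Timepoint 2 against 1. They were 427 of 2105 in the interaction, and 425 of 6723 and 279 of 4154 for SCs against FAPs at Timepoints 2 and 3. Between passages they were 362 of 4093 (Timepoint 3 against 2), 5 of 2070 (4 against 3) and 15 of 2076 (5 against 4), and for the MYOG classes 31 of 3935. DESeq2 called 81 of 9780 genes and 1 of 26 fibre genes for Timepoint 4 against 3, and 79 of 7454 genes and 1 of 23 fibre genes for Timepoint 5 against 4. With at least 30 cells, 9 of 10581 genes (Timepoint 5 against 4) were called, and 13 of 11408 genes and 4 of 27 fibre genes (MYOG classes). With 2 or more MYOG UMIs 749 of 11301 genes and 22 of 29 fibre genes were called. Leaving out donors 1, 2, 4, 5, 6, 9 and 10 in turn gave 9 to 29 genes between Timepoints 4 and 5 (19, 22, 19, 9 and 20 without donors 1, 2, 5, 6 and 9). Without thinning, 68.4%, 34.9%, 8.19% and 8.42% of Timepoint 3 SCs had an ACTC1, MYLPF, ACTA1 or MYH3 UMI, and thinned to 4000 UMIs 12.7% had a MYLPF UMI. Fewer cells, UMIs or genes entered the thinned and 30-cell fits by construction. For the other differences the cause was not tested. Use of every singlet without quality control was not run, as types were deposited for kept cells alone.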
